A study of Mus musculus with 4 samples.

Results

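The interferon response genes described here are 41 named mouse genes: 6 interferon regulatory factors (IRFs) and 35 genes that interferons are known to induce. They were chosen by symbol, from the rows of the table of expected counts, and not by any measured value. A row was matched for 40 of the 41 symbols, and Mx2 was not analysed here. Gbp6 had 2 rows (ENSMUSG00000079362.5 and ENSMUSG00000104713.4), which gave 41 rows of the 25509 genes listed. The RNA came from naive CD4+ T cells sorted from mouse spleen (CD25-, CD62L high, CD44 low). All cultures, WT and Batf3-/- alike, received anti-CD3 and anti-CD28 antibodies with TGFb, IL-4 and TL1A over 72 h. These are TH9 conditions, under which helper T cells come to secrete interleukin 9. The 2 groups were WT and Batf3-/- cells, with 2 libraries each. BATF3 is a basic leucine zipper factor of the AP-1 superfamily, and related BATF proteins bind DNA together with IRF proteins. The labels give neither the strain, age or sex of the mice nor which exons the Batf3 allele lacks. They also do not say whether the replicates came from separate mice, so p-values speak only for the spread among these 4 samples. Part of that spread may be technical. In bulk RNA, fewer cells of a type and less RNA per cell cannot be told apart. No culture without the TH9 cytokines and none with added interferon was analysed here.

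Interferons bind receptors that signal through JAK kinases and STAT factors. Type I interferon drives a complex that contains STAT2 and IRF9 to a DNA element called the ISRE, and interferon gamma acts through an element called GAS. The targets include antiviral effectors, sensors of viral RNA and DNA, immunity-related GTPases and the machinery that makes peptides for MHC class I. Some of these genes are also expressed without an infection, which is often called tonic expression, and others stay close to silent until interferon arrives.

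Library totals ranged from 15624874 (Batf3-/- replicate 2) to 31098059 counts (Batf3-/- replicate 1). Batf3 had 1439 and 1661 counts in WT replicates 1 and 2 but 17 and 8 in Batf3-/- replicates 1 and 2, so each library carried the level its label implies. The T cell markers Cd4, Cd3e and Lck were abundant in every library. Ms4a1, Lyz2, Clec9a and Ncr1, which define B cells, myeloid cells, a dendritic cell subset and natural killer cells, had 0 counts in all 4 libraries. Levels are given as CPM, counts scaled to the library size. The summed level of 7 macrophage and monocyte markers was 0.335 to 0.676 CPM, and that of 5 natural killer cell markers was 0.194 to 0.547 CPM. The 6 B cell markers summed to 9.91 to 13.2 CPM, nearly all of it Cd79b. The 8 dendritic cell markers summed to 37 to 40.9 CPM, most of it Bst2, which is itself one of the interferon response genes. Of the other dendritic cell markers, Zbtb46 stood at 7.24 and 5.43 CPM in WT libraries against 5.16 and 4.91 CPM in Batf3-/- libraries. Flt3 stood at 1.84 and 1.31 against 1.54 and 0.905 CPM. The CD8 T cell marker Cd8b1 stood at 8.92 and 8.31 against 7.33 and 7.24 CPM. Cd8a had 4 and 5 counts in WT libraries against 3 and 1 in Batf3-/- libraries. The replicate numbers differed in sex-linked RNA: Xist stood at 0.214 and 0.0944 CPM in WT and Batf3-/- replicate 1 and at 166 and 144 CPM in WT and Batf3-/- replicate 2. The summed level of 4 Y-linked genes was 146 to 344 CPM, above 0 in all 4 libraries. Both libraries of replicate 2 thus held Xist as well as Y-linked RNA, while replicate 1 held Y-linked RNA with Xist near 0. The replicate numbers therefore did not hold the same pool of cells, and the spread between them was not technical alone. The part of the sex-linked difference in the results below was not tested, and changes are given within each replicate number. Over all tested genes, WT replicate 1 stood slightly apart from the other 3 libraries (correlation of log2 CPM 0.971 to 0.976, against 0.981 to 0.982 among the others).

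The start regions of these genes are shown first, because the ISRE is what many of them are known for. Windows of 300 bases (250 before to 50 after an annotated start) were taken from RefSeq on GRCm38.p6 and matched by symbol for 32 of the 41 genes. The core of the ISRE was searched as TTTC, 2 bases of any kind and TTTC again, on both strands, with overlapping matches counted. It was present in 17 of the 32 genes (53.1%), against 1079 of all 27025 genes with a window (3.99%). The GAS letters TTCNNNGAA were present in 10 of 32 (31.2%, against 9.55% of all genes) and the AP-1 letters TGANTCA in 9 of 32 (28.1%, against 8.97%). A composite of IRF and AP-1 letters (the AP-1 letters preceded directly by GAAA, or by TTTC and 4 bases of any kind), as known for BATF with IRF4, was in 0 of 32 windows and in 0.274% of all genes. The windows of Psmb9 and Tap1 share 275 bases, so largely the same start region is counted for both genes. Neither held a match to any of these letters. A match is a run of letters and not a measured binding site. 5 windows follow, 5′ to 3′ on the gene's own strand, with ISRE matches, on either strand, in capitals (overlapping ones run together). Isg15 (chr4:156200769-156201068, minus strand) had the most matches, 3 that overlap. Bst2 (chr8:71537423-71537722, minus strand) had 2 and was the most abundant antiviral effector. Ifit2 (chr19:34550444-34550743, plus strand, the upstream of its 2 windows) and Ifit3 (chr19:34583279-34583578, plus strand) are neighbours with very different levels. Ifih1 (chr2:62646206-62646505, minus strand) had the smallest p for a change in Batf3-/- cells.
Isg15: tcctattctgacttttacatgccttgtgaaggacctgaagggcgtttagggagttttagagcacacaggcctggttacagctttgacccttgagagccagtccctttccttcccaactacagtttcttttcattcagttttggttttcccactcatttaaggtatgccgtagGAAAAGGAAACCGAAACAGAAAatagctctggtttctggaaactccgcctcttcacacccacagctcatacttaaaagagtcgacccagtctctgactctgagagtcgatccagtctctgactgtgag
Bst2: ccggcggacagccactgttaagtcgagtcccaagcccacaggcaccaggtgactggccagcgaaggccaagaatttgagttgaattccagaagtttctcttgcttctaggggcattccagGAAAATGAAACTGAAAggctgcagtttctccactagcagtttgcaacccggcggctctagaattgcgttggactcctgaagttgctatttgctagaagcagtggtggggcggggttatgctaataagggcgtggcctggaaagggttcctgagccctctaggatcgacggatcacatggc
Ifit2: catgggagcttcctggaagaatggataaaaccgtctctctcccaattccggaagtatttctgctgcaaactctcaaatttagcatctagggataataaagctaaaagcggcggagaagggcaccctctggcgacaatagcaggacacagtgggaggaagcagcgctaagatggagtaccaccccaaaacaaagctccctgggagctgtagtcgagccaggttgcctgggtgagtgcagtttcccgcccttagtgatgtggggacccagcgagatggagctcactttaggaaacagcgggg
Ifit3: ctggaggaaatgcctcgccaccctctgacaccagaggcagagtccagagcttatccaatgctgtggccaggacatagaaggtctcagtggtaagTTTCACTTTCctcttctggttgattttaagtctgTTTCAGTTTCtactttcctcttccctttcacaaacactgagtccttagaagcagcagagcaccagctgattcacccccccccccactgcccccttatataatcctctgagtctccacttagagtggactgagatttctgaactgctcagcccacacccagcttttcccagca
Ifih1: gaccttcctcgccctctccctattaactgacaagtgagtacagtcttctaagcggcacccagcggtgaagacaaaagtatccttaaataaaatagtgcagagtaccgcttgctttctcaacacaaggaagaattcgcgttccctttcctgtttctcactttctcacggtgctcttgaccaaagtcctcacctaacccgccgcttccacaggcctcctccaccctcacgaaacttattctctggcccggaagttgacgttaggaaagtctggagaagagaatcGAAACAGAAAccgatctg
Neither window of Ifit2 held the ISRE letters, and Ifit3 held 2 matches.

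The letters did not sort the genes by level. Of the 15 genes with a window and a mean level of at least 10 CPM, 7 had an ISRE match. Among those from 1 to 10 CPM it was 5 of 6, and among those under 1 CPM 5 of 11. Among the 4 genes with the highest CPM per kb of exon, Psmb8 and Tap1 had no ISRE match in this window and Igtp and Bst2 had 1 and 2, while Rsad2, Cxcl10, Ifit3 and Ifit3b, all near 0, had 1 or 2.

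The TH9 cultures expressed a restricted part of the interferon response, and did so at nearly the same summed level in both genotypes. The 41 rows summed to 1027 and 1070 CPM in WT replicates 1 and 2 and to 1012 and 1080 CPM in Batf3-/- replicates 1 and 2. The 3 most abundant genes, Psmb8, Tap1 and Igtp, made up 54.9% of that sum. By mean level over the 4 libraries, 17 rows stood at 10 CPM or more, 7 between 1 and 10 CPM and 17 under 1 CPM. The floor for a gene at 0, taken as 3 counts, was 0.0944 to 0.194 CPM per library and covers counting error only.

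**Figure D1:**
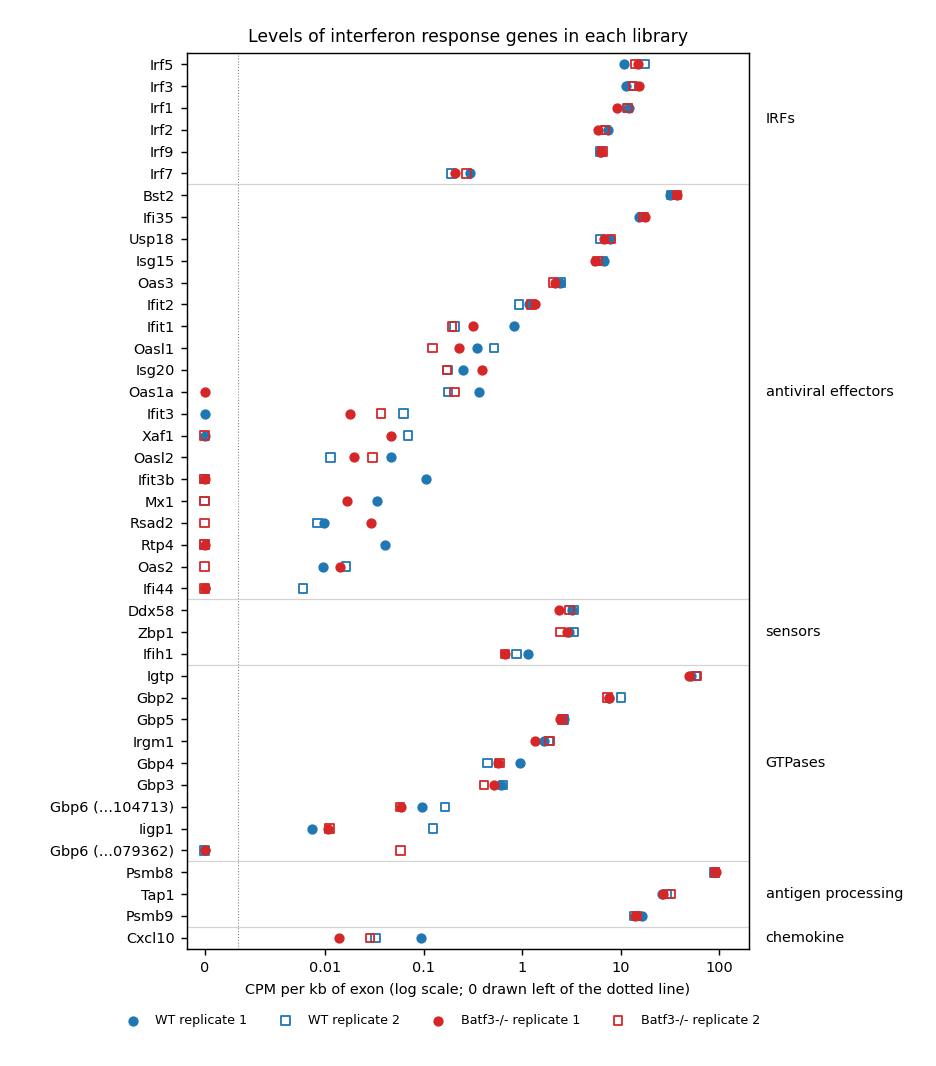
Level of each interferon response gene in the 4 libraries, as CPM per kb of exon on a log axis, grouped by role and ordered by mean level. Blue points are WT and red points Batf3-/-; filled circles are replicate 1 and open squares replicate 2. Psmb8 and Igtp lie furthest to the right, and 10 rows have 0 counts in at least 1 library.

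Levels of different genes are compared as CPM per kb, that is, CPM divided by the length of the union of the gene's exons. On this scale the order within the 12105 tested genes of known length ran from Psmb8, above 96.3% of them, down to Mx1, Oas2, Rsad2, Ifi44, Rtp4 and the Gbp6 row ENSMUSG00000079362.5, which were below all of them.

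Among the IRFs, 5 of 6 were expressed in the middle range, and Irf7 was low. Irf5, known for its role downstream of Toll-like receptors, stood at 10.9 and 17.5 CPM per kb in WT replicates 1 and 2 and at 15.1 and 14.1 in Batf3-/- replicates 1 and 2. The groups overlapped, with WT replicate 1 the lowest and WT replicate 2 the highest. Irf3, the factor that starts interferon gene transcription after viral sensing, stood at 11.4 and 12.7 CPM per kb in WT and at 15.2 and 13.4 in Batf3-/- cells, with both Batf3-/- libraries above both WT libraries. By edgeR its log2 fold change was 0.25 ± 0.19 SE with an adjusted p of 0.958, which did not pass the test, and with a correction for GC content it was 0.05. Irf1, itself a target of interferon gamma, Irf2, its antagonist, and Irf9, the DNA-binding subunit of the type I complex, had mean levels of 11.2, 6.84 and 6.33 CPM per kb. Irf9 was the steadiest, at 33.5, 33.7, 33.7 and 35.4 CPM in WT replicates 1 and 2 and Batf3-/- replicates 1 and 2. Irf7, which amplifies type I interferon production and is strongly induced by interferon, had 26 and 20 counts in WT libraries against 25 and 16 in Batf3-/- libraries. Its mean of 0.243 CPM per kb was above that of 6.61% of tested genes.

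The antiviral effectors spanned the full range. Bst2 (tetherin, which holds budding virus on the cell surface) stood at 31.4 and 32.4 CPM per kb in WT and 37 and 37.3 in Batf3-/- cells, so that both Batf3-/- libraries were higher. Its log2 fold change of 0.22 did not pass the test and was 0.07 with the GC correction. Bst2 is also a marker of plasmacytoid dendritic cells, whose defining marker Siglech had 1 count in Batf3-/- replicate 1 and 0 in the other libraries. Ifi35, an interferon-induced leucine zipper protein, stood at 15.2 and 16.4 CPM per kb in WT and 17.5 and 17 in Batf3-/- cells. Usp18, which removes ISG15 from proteins and restrains the type I receptor, and Isg15, a ubiquitin-like modifier, had mean levels of 7.2 and 6.17 CPM per kb. Oas3, a synthetase that activates RNase L, stood at 2.28 and Ifit2, which binds viral RNA, at 1.17 CPM per kb. Oas3 was slightly lower in both Batf3-/- libraries, at 17.1 and 17.5 CPM in WT libraries against 15.4 and 14.6 CPM in Batf3-/- libraries.

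Many classical induced genes of the same list were at or near 0. Rsad2 (viperin) had 1 and 1 counts in WT libraries against 4 and 0 in Batf3-/- libraries. Ifit3 had 0 and 3 counts in WT libraries against 1 and 1 in Batf3-/- libraries. Ifit3b had 5 and 0 counts in WT libraries against 0 and 0 in Batf3-/- libraries. Mx1, a GTPase that blocks influenza virus, had 3 and 0 against 2 and 0 counts. Xaf1, a pro-apoptotic gene, had 0 and 9 counts in WT libraries against 7 and 0 in Batf3-/- libraries, and its log2 ratios for replicates 1 and 2 were 3.56 and -4.09. Oasl2 had 7 and 2 counts in WT libraries against 4 and 3 in Batf3-/- libraries. Oas1a, another OAS synthetase, had 16 and 9.15 counts in WT libraries against 0 and 6 in Batf3-/- libraries. Ifi44, Rtp4 and Oas2 never exceeded 2 counts. These genes fell below the filter on low counts, and at such counts no difference between genotypes was detectable. Cxcl10, the interferon-induced ligand of CXCR3, had 5 and 2 counts in WT libraries against 1 and 1 in Batf3-/- libraries, which is also too low for a test.

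Genes that lie side by side differed widely in level. The Ifit cluster spans 99.3 kb (chromosome 19, 34550694 to 34650009, GRCm38). Within it Ifit2 stood at 1.17 CPM per kb and Ifit3b at 0.0268. In the Oas cluster (chromosome 5, 120730333 to 120907521) Oas3 stood at 2.28 CPM per kb beside its neighbour Oas2 at 0.01. Ifit3b and Oas2 averaged 0.0536 and 0.0447 CPM, below the floor of 3 counts, so the size of these differences is uncertain. In the Gbp cluster of chromosome 3 (142493978 to 142638008) Gbp2 was at 8.19 and Gbp3 at 0.547 CPM per kb. The genes for antigen processing lie together in the MHC region (chromosome 17, 34181987 to 34201454) and were all abundant. None of the 41 rows lies on chromosome 1, which holds Batf3.

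The 3 sensors were expressed at low to moderate levels. Ddx58 (RIG-I) and Ifih1 (MDA5) recognise viral RNA, and Zbp1 recognises left-handed nucleic acid and can trigger cell death. Ddx58 stood at 22.5 and 23.5 CPM in WT libraries against 16.6 and 21.5 CPM in Batf3-/- libraries. Zbp1 stood at 10.6 and 11.8 CPM in WT libraries against 9.98 and 8.66 CPM in Batf3-/- libraries. Ifih1 stood at 9.3 and 7.18 CPM in WT libraries against 5.44 and 5.5 CPM in Batf3-/- libraries. For each sensor both Batf3-/- libraries were below both WT libraries, which was so for 15.6% of all tested genes. None of the sensors passed the test.

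Among the interferon-inducible GTPases, which attack the membranes around intracellular pathogens, Igtp (IRGM3) dominated. It stood at 104 and 119 CPM in WT libraries against 99 and 119 CPM in Batf3-/- libraries, and both libraries of replicate 2 were higher than both of replicate 1. Gbp2 stood at 19.4 and 25.3 CPM in WT libraries against 19.2 and 18.6 CPM in Batf3-/- libraries, where WT replicate 2 was the highest library. Gbp5, a promoter of inflammasome activity, was at 17.6 CPM in each WT library and at 16.1 and 17.1 CPM in Batf3-/- cells. Irgm1, a regulator of the other GTPases, was at 9.65 and 10.9 against 7.84 and 11.1 CPM. Gbp4 was at 7.2 and 3.34 CPM in WT libraries against 4.24 and 4.42 CPM in Batf3-/- libraries, so that the WT libraries enclosed both others. Iigp1 had 20 counts in WT replicate 2 and 1 or 2 in the other 3 libraries.

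Antigen processing was the most abundant group, with summed levels of 507 to 539 CPM per library. Psmb8, a catalytic subunit of the immunoproteasome, stood at 304 and 304 CPM in WT libraries against 311 and 307 CPM in Batf3-/- libraries. Psmb9, a second such subunit, was at 59.5 and 50.6 CPM in WT libraries against 51.2 and 53.4 CPM in Batf3-/- libraries. Tap1, which pumps peptides into the endoplasmic reticulum, was at 144 and 162 CPM in WT libraries against 148 and 179 CPM in Batf3-/- libraries, and the groups overlapped.

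The comparison of the genotypes asked whether loss of Batf3 changed this basal interferon program. No gene of the set passed the test. Of the 41 rows, 28 had enough counts to be tested, and 0 passed at an adjusted p of 0.05 in edgeR, where 16 of all 12135 tested genes passed (0.132%). Without an adjustment, 2 of the 28 had a p under 0.05, against 4.8% of all tested genes. DESeq2 and limma-voom also called 0, with 0 unadjusted p-values under 0.05 in each. With so low a share called over all genes, a count of 0 among 28 does not set these genes apart.

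**Figure D2:**
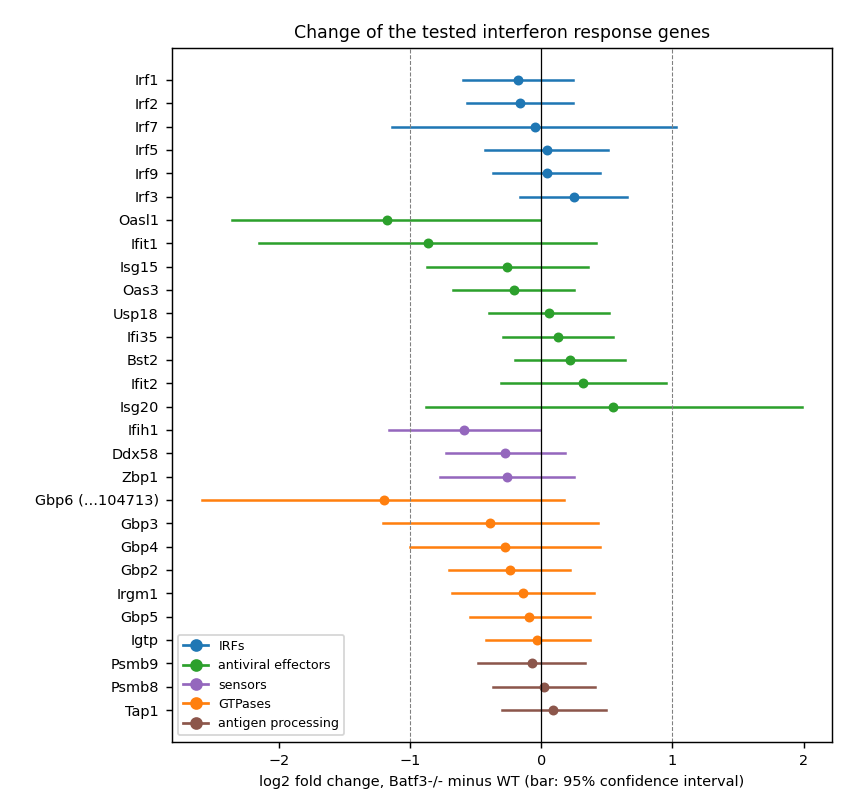
Log2 fold change, Batf3-/- minus WT, with its 95% confidence interval for the 28 rows with enough counts to be tested, colored by role; dashed lines mark 2-fold. The intervals of Psmb8 and Igtp are among the narrow ones, and those of Ifih1, Oasl1, Ifit1, Isg20, Irf7, Gbp3, Gbp4 and Gbp6 reach past 2-fold.

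The intervals show how large a change these data leave possible. For 20 of the 28 rows the 95% confidence interval lay wholly within 2-fold in either direction. For Psmb8 it ran from 0.776 to 1.33 times the WT level, for Igtp from 0.746 to 1.29 times, for Irf9 from 0.773 to 1.37 times and for Usp18 from 0.76 to 1.44 times. For low genes the limits were wide. The interval of Irf7 ran from 0.454 to 2.05 times the WT level and that of Isg20, an RNA exonuclease gene with 11 and 9 counts in WT libraries against 23 and 5 in Batf3-/- libraries, from 0.544 to 3.97 times.

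The 3 smallest p-values of the set all belonged to genes with lower values in Batf3-/- cells. Ifih1 (ENSMUSG00000026896.14, chromosome 2, 62595798 to 62646255) averaged 8.24 ± 1.5 CPM over the WT libraries and 5.47 ± 0.0363 CPM over the Batf3-/- libraries (SD, n = 2 each). By edgeR its log2 fold change was -0.59 ± 0.27 SE (unadjusted p = 0.0452, or an adjusted p = 0.958), and its log2 ratios for replicates 1 and 2 were -0.77 and -0.38. Oasl1 (ENSMUSG00000041827.15, chromosome 5, 114923240 to 114937915), which encodes an OAS-like protein that limits translation of Irf7, had 21 and 37 counts in WT libraries against 19 and 5 in Batf3-/- libraries. Its levels were 0.9 and 1.35 CPM in WT libraries against 0.598 and 0.323 CPM in Batf3-/- libraries, which do not overlap (edgeR log2 fold change -1.18 ± 0.56 SE, unadjusted p = 0.0489, or an adjusted p = 0.958). Without WT replicate 2 its log2 fold change was -0.84, and without Batf3-/- replicate 1 it was -1.79. The Gbp6 row ENSMUSG00000104713.4 had 13.35 and 26.95 counts in WT libraries against 11.19 and 5.3 in Batf3-/- libraries (edgeR log2 fold change -1.20 ± 0.66 SE, adjusted p = 0.958). Without WT replicate 2 its log2 fold change was -0.71. This row passed the filter on low counts only through its WT libraries, which favours a negative sign. The second row, which the deposited table calls Gbp6 and GENCODE M21 names Gm43302, had 3.88 counts in Batf3-/- replicate 2 and 0 elsewhere; the loci of the 2 rows overlap in the annotation and their counts are uncertain.

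By role, the tested IRFs had 3 positive and 3 negative log2 fold changes and the antiviral effectors 5 and 4, and the antigen processing genes 2 and 1. With a correction for GC content, 4 of the 6 IRFs and all 3 antigen processing genes were negative. All 3 sensors and all 7 tested rows of GTPases were negative, with medians of -0.28 and -0.24. The sensors stayed negative under each scaling tried, while Igtp stood at 0.00 with upper-quartile scaling, which left 6 of 7 GTPase rows below zero. Over the 28 rows 18 were negative, with a median of -0.11, beside 51.6% negative and a median of -0.01 over all tested genes. With the GC correction 21 of the 28 were negative. In 17 of the 28 the libraries of the genotypes did not overlap, against 33.8% of all tested genes. In 11 of them both Batf3-/- libraries were the lower, against 15.6% of all tested genes. The tested Gbp6 row is among these and among the negative GTPase rows, and it passed the filter only through its WT libraries. The rows share libraries and are not independent of each other, and no test was made over them.

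**Figure D3:**
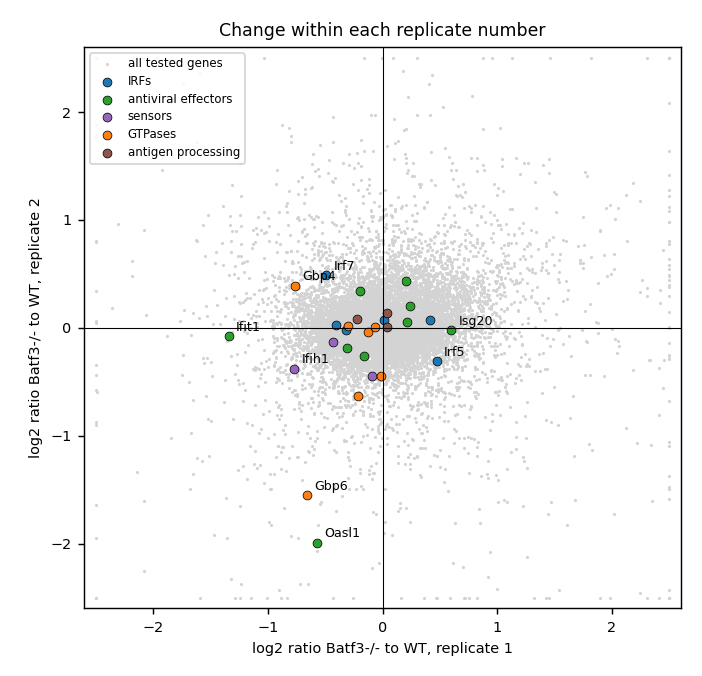
Log2 ratio of Batf3-/- to WT within replicate 1 (horizontal) and within replicate 2 (vertical) for all tested genes (grey) and the 28 tested interferon response rows (colored by role); grey genes beyond the axes are drawn at the edge. Oasl1, Gbp6 and Ifih1 lie in the lower left, while the 2 ratios of Gbp4, Irf7 and Irf5 differ in sign.

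The ratios within the replicate numbers show how far the direction held. The median log2 ratio of the 28 rows was -0.18 within replicate 1 and -0.00 within replicate 2. Of the rows 12 were negative in both numbers, 7 positive in both and 9 of opposite sign. The sign was thus the same in 67.9% of the rows, against 55.2% of all tested genes. Of all tested genes, 28% were negative in both numbers. Irf7 was at -0.49 and 0.49, Irf5 at 0.47 and -0.31 and Gbp4 at -0.76 and 0.39 within replicates 1 and 2. Ifit1, which binds uncapped viral RNA, had 51 and 15 counts in WT libraries against 27 and 8 in Batf3-/- libraries, with WT replicate 1 well above the rest at 2.19 CPM against 0.517 to 0.85 CPM. Its log2 fold change of -0.86 became 0.40 without WT replicate 1, and that of Gbp4 went from -0.28 to 0.35. Without WT replicate 2 they were -1.58 (adjusted p = 0.0622, edgeR) and -0.74. Each of those fits had 1 WT library left, which is assumed to vary like the others.

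The genes upstream of this response were read from lists named in the processing section. Interferon genes were almost silent, and their receptors and signal transducers were expressed apart from a low Ifnlr1. Among 8 inhibitors of the pathway, 1 passed in edgeR with genotype as the only term. Which inhibitors passed depended on the setting, as given below. None of the 12 interferon genes had enough counts for a test. Ifng had 3 and 10 counts in WT libraries against 1 and 0 in Batf3-/- libraries, Ifnb1 had 0 in every library, and Ifnl2 had 12 and 1 against 3 and 1.

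**Figure D4:**
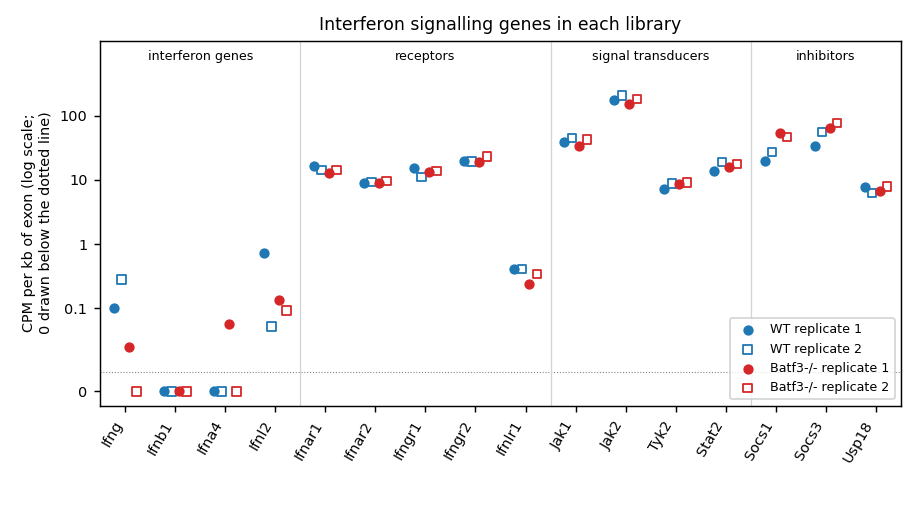
Levels of interferon genes, receptors, signal transducers and inhibitors in the 4 libraries, as CPM per kb of exon on a log axis; colors and symbols mark genotype (blue WT, red Batf3-/-) and replicate number (filled circle 1, open square 2). Receptor genes other than Ifnlr1 have means of 9.26 to 20.2 CPM per kb, and Socs1 is higher in both Batf3-/- libraries.

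Of the 10 receptor and signalling genes 0 passed, 5 were positive and 5 negative (median -0.05). Ifnar1, a chain of the type I receptor, stood at 97.4 and 84.1 CPM in WT libraries against 77 and 85.6 CPM in Batf3-/- libraries. Ifngr1, the ligand-binding chain of the interferon gamma receptor, stood at 43.4 and 31.6 against 38 and 39.4 CPM. Ifnlr1, a chain of the lambda receptor, was low at 1.71 CPM in each WT library and 1.01 and 1.42 CPM in Batf3-/- cells.

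Socs1, which encodes an inhibitor of JAK kinases that restrains interferon signalling, was at 58.3 and 79.2 CPM in WT libraries and rose to 156 and 137 CPM in Batf3-/- libraries (edgeR log2 fold change 1.09 ± 0.20 SE, adjusted p = 0.0296). It missed the threshold after a GC correction (log2 fold change 0.82, adjusted p = 0.112 in edgeR) and without Batf3-/- replicate 1 (log2 fold change 0.99, adjusted p = 0.301 in edgeR). Its 95% interval was 1.6 to 2.85 times the WT level. Socs3, a related inhibitor of cytokine signalling, stood at 98 and 163 CPM in WT libraries against 184 and 225 CPM in Batf3-/- libraries (edgeR log2 fold change 0.65 ± 0.23 SE, adjusted p = 0.78), which do not overlap. It did not pass, but did without WT replicate 2 (log2 fold change 1.06, adjusted p = 4.84e-04 in edgeR). Usp18 and Irf2 belong to the same list and are described above.

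Of 11 tested genes that lead to interferon production 0 passed (median -0.05). Tlr7, an endosomal RNA sensor of the X chromosome, had 40 and 125 counts in WT libraries against 63 and 22 in Batf3-/- libraries. Ikbke, a kinase that activates IRF3, stood at 62.8 and 39.6 against 67.6 and 63.8 CPM. Of 41 further tested interferon-stimulated genes 0 passed, with 12 positive and 29 negative (median -0.15). The smallest p-values among them belonged to Ifitm2, a membrane protein that hinders viral entry, and to the GTPase gene Tgtp2. Ifitm2 stood at 98.6 and 83 CPM in WT libraries against 133 and 133 CPM in Batf3-/- libraries (edgeR log2 fold change 0.55 ± 0.19 SE, adjusted p = 0.724). Tgtp2 stood at 5.47 and 4.24 against 2.84 and 2.13 CPM (edgeR log2 fold change -0.93 ± 0.33 SE, adjusted p = 0.814); its counts were fractional. In the Ifi200 family on chromosome 1, 9 of 16 symbols had a row and only Aim2, a cytosolic DNA sensor, had enough counts for a test. Aim2 starts 17.7 Mb from the start of Batf3 and stood at 53.1 and 40.7 CPM in WT libraries against 72.6 and 62.8 CPM in Batf3-/- libraries (edgeR log2 fold change 0.53 ± 0.20 SE, adjusted p = 0.84). Leaving out 1 library at a time gave 0.35 (without WT replicate 2) to 0.73 (without WT replicate 1).

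Counts of several members were estimates that divide reads between loci. Irf1, Irf5, Irf9, Igtp, Psmb9 and Tap1 overlap a neighbour in the annotation, and their fractional counts added up with it to whole numbers, within 0.02, in at least 3 libraries. The partners were Gm17334 for Irf1, Tnpo3 for Irf5, Rnf31 for Irf9, Irgm2 for Igtp and, for Psmb9 and Tap1, each other. Gbp3 did the same with its paralog Gbp7, at whole sums of 80, 105, 100 and 37 reads in WT replicates 1 and 2 and Batf3-/- replicates 1 and 2. Gbp4 and Gbp6 carried fractional counts with no such single partner, as did Usp18 in 2 libraries and Oas1a in 1. The levels of these genes are uncertain to the extent of that division.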

How the data were processed

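RNA sequencing libraries from 2 WT and 2 Batf3-/- cultures were analysed. The deposited values are expected counts per gene, estimates that the authors made with STAR 2.5.0 and RSEM 1.2.25 on GRCm38 (per the submitters' processing notes). A stranded kit was used, per the labels' protocols; annotation release and counting strand: not given in the sources used here. Overlapping genes and paralogs are therefore uncertain. The 92 spike-in entries, all at 0, were left out. Rounded counts went into edgeR 4.0.16 under R 4.3.3: filterByExpr (minimum count 10, minimum total 15), TMM (factors 0.982 to 1.02), robust dispersions, the quasi-likelihood test (glmQLFit, legacy=FALSE; two-sided), genotype as the only term, Benjamini-Hochberg adjustment over 12135 genes at 0.05. Levels are TMM-normalized CPM; ratios within a replicate number use a prior count of 0.5. Intervals are 95% limits from the unadjusted test. Exon lengths, GC content and positions come from GENCODE M21 on GRCm38, matched by gene identifier. Other settings were another scaling, another filter, DESeq2 1.42.0, limma-voom 3.58.1, each library left out, a block for replicate number, a GC correction and a prior count of 2.

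The genes, lists and tests were chosen with earlier results of these data known. Values per library are given for genes with the smallest p, the highest level per role, ratios of at least 0.5 in both replicate numbers or 0 counts in 1 genotype. Values per library of other genes of the set (Irf7, Irf9, Ifit1, Isg20, Mx1, Oas1a, Oas3, Gbp4, Gbp5, Iigp1, Irgm1 and Psmb9) were added after their values were seen. Pathway lists held interferon genes, receptors and signal transducers, inhibitors, inducers of interferon, further interferon-stimulated genes and the Ifi200 family; at most 4 called genes, or else the 2 with the smallest p, were named, with Ifng, Ifnar1, Ifngr1 and Socs1. Some named genes of these lists are not reported here. Ifnb1, Ifnl2, Socs3 and the genes compared within clusters were named after their values were seen.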

Additional observations from a re-analysis of the deposited data

How the results depend on the processing

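No interferon response gene passed under any of the 13 other settings. Over all genes, edgeR's 10 higher and 6 lower calls became 81 and 31 with the replicate number as a block and 54 and 33 with that block and a GC correction. DESeq2 called 21 higher genes. Leaving out 1 library at a time gave 11 to 301 higher and 7 to 252 lower genes, the largest counts without WT replicate 2; there were 38 and 24 when WT replicate 1 was left out, and 23 and 15 when Batf3-/- replicate 2 was. The titles of same-numbered libraries share a prefix (E85 for 1, E87 for 2) across the genotypes; the labels do not say what it marks, the correlation of same-numbered deviations was 0.105, and the median prior degrees of freedom were infinite in that fit and 16.8 without the block. Same-numbered libraries of both genotypes were alike in Xist, at 0.214 and 0.0944 CPM in WT and Batf3-/- replicate 1 and 166 and 144 CPM in replicate 2. The block changed the call of 0 of the 28 tested rows (smallest adjusted p 0.517, Ifih1, edgeR). Of the named pathway genes, Socs1 passed with the block (adjusted p 7.09e-07, edgeR) and with block and GC correction (1.29e-05), Socs3 with the block (0.0158) but not with both (0.328), and Aim2 with both (log2 fold change 0.69, adjusted p 0.00252) but not with the block (0.197). The median log2 fold change of the tested interferon response rows, -0.11, was -0.24 with no filter, which adds 13 low rows. It was -0.19 to -0.05 with 1 library left out. The sign turned for Igtp with upper-quartile scaling (0.00). With a GC correction it turned for Irf5 (-0.11), Psmb8 (-0.04) and Tap1 (-0.07), and with GC correction and block they stood at -0.08, -0.04 and -0.08. With 1 library left out, the log2 fold changes spanned zero for Irf5 (-0.27 to 0.43), Irf7 (-0.34 to 0.26), Ifit1 (-1.58 to 0.40), Gbp4 (-0.74 to 0.35), Psmb9 (-0.19 to 0.04), Usp18 (-0.08 to 0.21), Igtp (-0.16 to 0.10), Irf1 (-0.38 to 0.00), Isg20 (-0.29 to 0.87), Irgm1 (-0.39 to 0.10), Tap1 (-0.05 to 0.22), Ifngr1 (-0.17 to 0.28) and Tlr7 (-1.38 to 0.04). The cause of these shifts was not tested. Depth limits the rows under 1 CPM, for which only large changes were detectable.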
